A study of Mus musculus with 8 samples.

Results

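The EGF receptor genes and the genes of their ligands were followed in mouse epidermis with and without the clock factor BMAL1. The members are the rows of the deposited count table whose Ensembl identifiers carry the names Egfr, Erbb2, Erbb3, Areg, Ereg, Hbegf, Tgfa, Btc, Epgn and Errfi1 in GRCm38. All 10 were found among the 34070 genes of the table. RNA was taken at zeitgeber time 4 (ZT4, in hours after lights on) from suspended epidermal cells, and the mice were adults of 18 to 25 weeks. The 4 Bmal1cKO libraries are from K14-Cre;Bmal1flox/flox mice and the 4 Bmal1WT libraries from K14-Cre;Bmal1wt/wt mice, so both groups carry the Cre. The keratin 14 promoter drives Cre in keratinocytes of the basal layer and their progeny, so Langerhans cells, T cells and melanocytes of the epidermis keep their Bmal1. The question was whether transcripts of the EGF receptor system differ between the genotypes, and how they vary among the libraries.

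The EGF receptor and its relatives ERBB2 and ERBB3 are tyrosine kinases of the cell surface that signal as pairs. Their ligands are made as precursors held in the membrane, and proteases such as ADAM17 release them to act on the same or on neighbouring cells. In the epidermis, the pathway is known to sustain proliferation of basal keratinocytes, to restrain their differentiation and to be switched on by wounding. The ligands amphiregulin (Areg), epiregulin (Ereg), HB-EGF (Hbegf), TGF-alpha (Tgfa), betacellulin (Btc) and epigen (Epgn) bind EGFR, and Errfi1 encodes MIG6, an inhibitor of the receptor kinase that the pathway itself induces.

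The genes lie at several places in GRCm38. Egfr is on chromosome 11 (16752203 to 16918158) with Erbb2 (98412470 to 98437716), Erbb3 on chromosome 10 (128567523 to 128589652), Errfi1 on chromosome 4 (150853919 to 150868892) and Tgfa on chromosome 6 (86195223 to 86275719). The other 4 ligand genes form a cluster on chromosome 5, in the order Epgn (91027464 to 91035215), Ereg (91074622 to 91093646), Areg (91139599 to 91148432) and Btc (91357261 to 91402994). The cluster spans 376 kb, its 4 ligand genes are the only protein-coding genes that GENCODE places within it, and Btc alone lies on the minus strand. Ereg shares 141 exon bases with the antisense gene Gm19610, which held 48 counts against 2332 of Ereg over the 8 libraries, and Erbb2 shares 9 exon bases with Mien1 on the other strand.

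RefSeq promoter windows of 250 bases before to 50 after a start site (GRCm38.p6) were available for 7 of the 10 members, in 8 windows, since Errfi1 has 2 starts. They do not include Erbb3, Ereg and Hbegf. The windows were searched on both strands for the E-box CACGTG that CLOCK and BMAL1 bind, the AP-1 site TGANTCA, the cyclic AMP response element (CRE) TGACGTCA and the TEAD site GGAATG. None of these motifs contains another. The E-box was found in 0 of the 8 windows, against 7.15% of 32851 windows of all genes, and the AP-1 site in 0 of 8, against 7.81%. With shares this low, 0 of 8 is an ordinary outcome and does not show a lack of either site. The CRE was in 2 windows, those of Areg and of 1 Errfi1 start, against 1.79% of all windows. The TEAD site was in 2, those of Erbb2 and of the other Errfi1 start, against 14.7%. The windows of Areg and Errfi1 are shown because both hold the CRE, 61 and 51 bases before the start, and that of Epgn because this ligand had the smallest p of the members. Each is on the plus strand, Areg at chr5:91139349-91139648, Errfi1 at chr4:150854820-150855119 and Epgn at chr5:91027267-91027566, and capitals mark the CRE.
Areg: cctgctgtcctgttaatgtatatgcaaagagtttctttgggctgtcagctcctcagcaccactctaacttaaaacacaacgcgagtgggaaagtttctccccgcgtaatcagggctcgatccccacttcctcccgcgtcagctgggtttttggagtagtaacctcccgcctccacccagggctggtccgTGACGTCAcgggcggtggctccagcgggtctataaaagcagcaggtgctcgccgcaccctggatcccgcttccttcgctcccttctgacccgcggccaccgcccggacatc
Errfi1: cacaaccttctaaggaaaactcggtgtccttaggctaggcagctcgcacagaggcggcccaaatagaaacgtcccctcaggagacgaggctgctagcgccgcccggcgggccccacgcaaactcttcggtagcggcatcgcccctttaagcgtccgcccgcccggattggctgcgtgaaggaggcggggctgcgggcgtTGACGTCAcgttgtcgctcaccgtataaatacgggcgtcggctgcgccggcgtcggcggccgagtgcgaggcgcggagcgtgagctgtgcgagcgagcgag
Epgn: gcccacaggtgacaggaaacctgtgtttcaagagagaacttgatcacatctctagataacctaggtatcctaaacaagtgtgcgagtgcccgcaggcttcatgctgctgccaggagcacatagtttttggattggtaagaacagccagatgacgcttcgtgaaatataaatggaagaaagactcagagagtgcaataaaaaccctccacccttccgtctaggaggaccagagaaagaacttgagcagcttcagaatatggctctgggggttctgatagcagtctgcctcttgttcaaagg
These matches describe the letters of the windows, and binding was not measured here.

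Total counts ran from 35685261 to 50396156 per library, and each member had at least 107 counts in every library. Values are CPM, the deposited counts scaled to a common library size by TMM, given as mean ± SD (n = 4). Bmal1 itself (symbol Arntl) averaged 46.5 ± 3.29 CPM in Bmal1WT and 33.7 ± 3.01 CPM in Bmal1cKO, without overlap of the libraries. The log2 difference was -0.47 ± 0.08, or 0.724-fold (edgeR quasi-likelihood adjusted p = 0.0611). Its counts may include exons outside the deleted part and RNA of cells that keep their Bmal1, and what remains in Bmal1cKO was not traced to a source. The 8 basal keratinocyte genes summed to 19400 to 21000 CPM in Bmal1WT and 21000 to 22700 CPM in Bmal1cKO. The 10 differentiated ones summed to 19400 to 28700 and 14400 to 21200 CPM, and all 10 had negative fold changes (median log2 -0.31). None was called by edgeR, and 2 of the 10, Flg and Klk7, had an unadjusted p under 0.05 (8.3% of all tested genes) and no overlap of the groups (5.15%). Flg, the filaggrin gene, differed by -1.85 ± 0.35 on the log2 scale (edgeR adjusted p = 0.103) and passed with DESeq2 (0.00148), without the filter (0.0246) and with sex as a covariate (0.0386). Among the basal genes Col7a1 passed with DESeq2 (adjusted p = 0.000486) and in the male libraries alone (0.0465). What these keratinocyte genes contribute to the differences of the members was not tested. The 6 fibroblast genes summed to between 3.47 and 43.6 CPM, highest in Bmal1WT replicate 4, the 5 Langerhans cell genes to between 75 and 419 CPM, the 5 melanocyte genes to between 3.27 and 23.2 CPM, the 7 hair follicle genes to between 121 and 300 CPM, the 5 sebaceous gland genes to between 554 and 1060 CPM, and the 4 endothelial genes to at most 1.17 CPM. The 5 T cell genes summed to between 82.2 and 127 CPM, of which Thy1 made up 33.3 to 81.8 CPM. Thy1 differed by 0.54 on the log2 scale (edgeR adjusted p = 0.421, and 0.0226 with the replicate block), while the other 4 were below 0, and Trdc ran from 4.84 to 25.4 CPM. In bulk RNA, fewer cells of a type cannot be told apart from less RNA per cell. By Xist and Y-linked genes, replicates 1 and 3 of both groups were female and 2 and 4 male.

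None of the 10 members was called between the genotypes. The test was edgeR's quasi-likelihood F-test on all 19646 genes that passed the filter on low counts, with a gene called at a Benjamini-Hochberg adjusted p under 0.05. All 10 members passed the filter. Over all genes 34 were called, 0.173% of those tested. The targeted gene Arntl was not among them (edgeR adjusted p = 0.0611). DESeq2 called 0 members (1.18% of all genes), as did limma voom (0.148%), edgeR with a replicate block (0.774%) and edgeR with sex as a covariate (0.606%). Only Epgn, 1 of the 10, had an unadjusted p under 0.05, which 8.3% of all tested genes had. The CPM of the groups overlapped in all 10 members, against 5.15% of all tested genes without overlap. Of the fold changes, 5 were positive and 5 negative, with a median of 0.00 on the log2 scale against -0.01 over all genes tested.

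**Figure D1:**
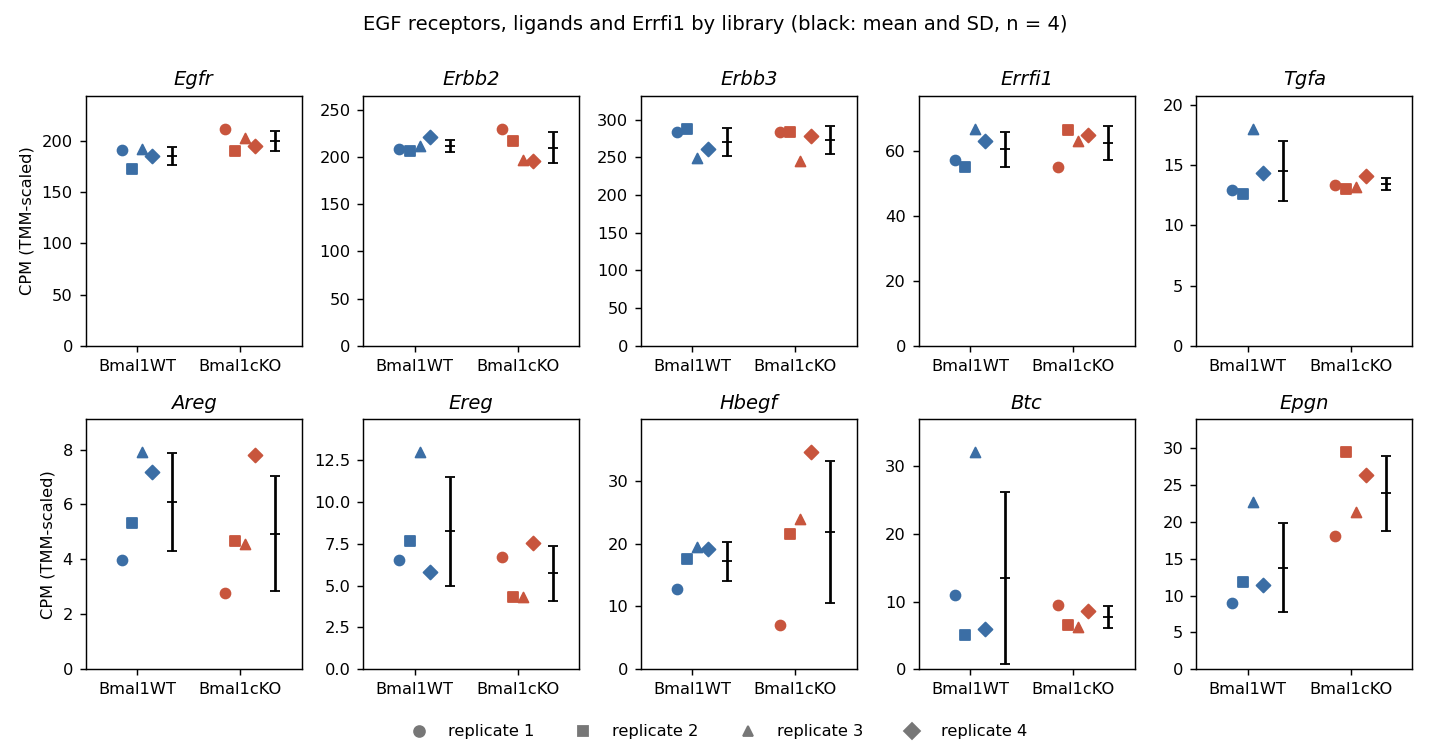
CPM of the 10 members in each library, 1 panel per gene with an axis from 0; blue points are Bmal1WT, red points Bmal1cKO, symbols give the replicate number and black bars the mean and SD of 4 libraries. Egfr, Erbb2, Erbb3 and Errfi1 lie in narrow bands, while Hbegf runs from 7.08 to 34.6 CPM and Btc from 5.03 to 32.1 CPM.

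The receptors were the most even members. Egfr, the receptor of all 6 ligands, had 191, 173, 192 and 185 CPM in the Bmal1WT libraries, in the order of replicates 1 to 4 kept throughout. The Bmal1cKO libraries had 212, 190, 203 and 195 CPM. The lowest value was that of Bmal1WT replicate 2 and the highest that of Bmal1cKO replicate 1, and the groups overlapped only between 190 and 192 CPM. The mean in Bmal1WT was 185 ± 8.66 CPM, and the log2 fold change 0.11 ± 0.05 (SE, edgeR adjusted p = 0.634), with a 95% interval in fold of 0.993 to 1.18.

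Erbb2, which binds no ligand of its own and serves as partner of the other receptors, was at 209, 206, 212 and 221 CPM in Bmal1WT and at 230, 217, 197 and 196 CPM in Bmal1cKO. The Bmal1cKO libraries lay on both sides of the Bmal1WT range. The means were 212 ± 6.36 and 210 ± 16.8 CPM, with log2 fold change -0.01 ± 0.06 (SE, edgeR adjusted p = 0.986), with an interval of 0.899 to 1.09 in fold. Erbb3, a receptor of neuregulins whose own kinase activity is weak, was at 284, 288, 249 and 261 CPM in Bmal1WT and at 284, 283, 245 and 278 CPM in Bmal1cKO. Replicate 3 was the lowest library of both groups. The means of 270 ± 18.8 and 273 ± 18.5 CPM gave a difference of 0.01 ± 0.07 on the log2 scale (SE, edgeR adjusted p = 0.988) and an interval of 0.903 to 1.13 in fold. For the 3 receptors, the intervals leave out a rise of more than 1.18-fold and a fall to less than 0.899 of the Bmal1WT level.

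Errfi1, the kinase inhibitor, stayed in a similar band. Its values were 57.2, 55, 66.9 and 63.1 CPM in Bmal1WT and 55.1, 66.6, 63.1 and 65 CPM in Bmal1cKO. The low libraries were replicates 1 and 2 of Bmal1WT and replicate 1 of Bmal1cKO. The log2 fold change was 0.04 ± 0.08 (SE, edgeR adjusted p = 0.941), with an interval of 0.91 to 1.17 in fold.

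The ligands differed more between libraries, and Epgn had the largest rise among the fold changes. Epigen is a ligand of low affinity for EGFR. Epgn was at 9, 11.9, 22.7 and 11.5 CPM in Bmal1WT, and at 18.1, 29.5, 21.4 and 26.4 CPM in Bmal1cKO. Bmal1WT replicate 3 stood within the Bmal1cKO range, and the other 3 Bmal1WT libraries were below every Bmal1cKO library. The means were 13.8 ± 6.08 and 23.9 ± 5.09 CPM, a log2 fold change of 0.79 ± 0.27 (SE), or 1.73-fold with an interval of 1.13 to 2.63. The difference did not pass the threshold (edgeR adjusted p = 0.453, unadjusted p = 0.0162, exact two-sided permutation p = 0.086 on the CPM, where 0.029 is the smallest that 4 against 4 allows).

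Epgn was called in 1 of the alternative fits. In the 2 male libraries of each group its log2 fold change was 1.26 ± 0.10 (SE, edgeR adjusted p = 0.00787), a fit that called 0.51% of all tested genes, 0.389% as higher. In the female libraries, which hold Bmal1WT replicate 3, it was 0.31 ± 0.41 (adjusted p = 0.943), with 0.0657% of all genes called. The difference between the sexes, tested as an interaction, did not pass (log2 0.95 ± 0.48, edgeR adjusted p = 0.739). Without Bmal1WT replicate 3 the log2 fold change was 1.14 (adjusted p = 0.0668). Over all alternatives the adjusted p ran from 0.00787 to 0.943, and with the replicate block it was 0.15.

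**Figure D2:**
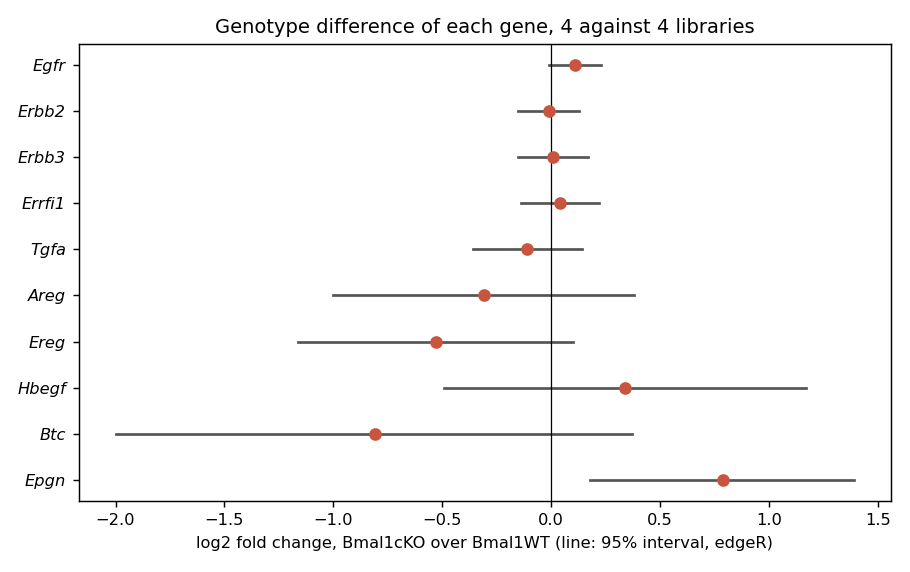
Log2 fold change of each member, Bmal1cKO over Bmal1WT, as a point with its 95% interval as a line, from the edgeR fit to 4 against 4 libraries. The intervals of the receptors and Errfi1 are short and span 0, that of Epgn runs from 0.18 to 1.39, and that of Btc from -2 to 0.37.

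In the main fit the chromosome 5 neighbours of Epgn had fold changes of the opposite sign, with log2 intervals that span 0. Ereg, a ligand of EGFR and ERBB4, was at 6.51, 7.69, 13 and 5.8 CPM in Bmal1WT and at 6.7, 4.3, 4.35 and 7.58 CPM in Bmal1cKO. Bmal1WT replicate 3 was again the highest library. The log2 fold change was -0.53 ± 0.28 (SE, edgeR adjusted p = 0.678), with an interval of 0.448 to 1.07 in fold. Areg, an autocrine growth factor of keratinocytes, was at 3.97, 5.31, 7.91 and 7.19 CPM in Bmal1WT and at 2.77, 4.66, 4.55 and 7.8 CPM in Bmal1cKO. The groups overlapped over most of their range, and replicate 1 was the lowest library of each. The log2 fold change of Areg was -0.31 ± 0.31 (SE, edgeR adjusted p = 0.875), with an interval of 0.501 to 1.31 in fold. Without Bmal1WT replicate 3 the log2 fold changes were -0.22 for Ereg and -0.15 for Areg. In the male libraries alone they were -0.18 and -0.00335, and in the female ones -0.82 and -0.71.

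Btc, which binds EGFR and ERBB4, had the widest spread. It was at 11, 5.03, 32.1 and 5.93 CPM in Bmal1WT and at 9.49, 6.49, 6.29 and 8.59 CPM in Bmal1cKO. A single library, Bmal1WT replicate 3, stood above the others, which all lay within 5.03 to 11 CPM. The log2 fold change was -0.81 ± 0.53 (SE, edgeR adjusted p = 0.76), and without this library it was 0.08 (adjusted p = 0.975). In the same library Lor, which encodes the cornified envelope protein loricrin, was at 496 CPM, against 73.6 to 137 CPM in the other 7. Krt1 at 1760 CPM and Krt10 at 9680 CPM were lowest there among the Bmal1WT libraries, and so was the sum of the 10 genes at 19400 CPM. Flg, at 269 CPM, was below the 357 CPM of replicate 2, and Klk7, at 176 CPM, below the 208 CPM of replicate 4. What these genes contribute to the Btc value was not tested. By sex, the log2 fold change of Btc was -1.45 ± 0.52 in the female libraries (edgeR adjusted p = 0.839) and 0.46 ± 0.18 in the male ones (adjusted p = 0.4), with an interaction, male minus female, of 1.91 ± 0.63 (adjusted p = 0.736).

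Hbegf, on the minus strand of chromosome 18 (36504927 to 36515805), encodes a heparin-binding ligand known to be induced early in keratinocytes after wounding. It was at 12.8, 17.6, 19.4 and 19.1 CPM in Bmal1WT and at 7.08, 21.6, 24 and 34.6 CPM in Bmal1cKO. The Bmal1cKO libraries held both the lowest and the highest value of all 8, replicates 1 and 4. The means were 17.2 ± 3.07 and 21.8 ± 11.3 CPM, with log2 fold change 0.34 ± 0.37 (SE, edgeR adjusted p = 0.893), with an interval of 0.71 to 2.26 in fold. Tgfa, the ligand whose loss gives mice wavy hair, was at 12.9, 12.6, 18 and 14.3 CPM in Bmal1WT and at 13.3, 13, 13.2 and 14.1 CPM in Bmal1cKO. Apart from Bmal1WT replicate 3, its values lay within 12.6 to 14.3 CPM. The log2 fold change of Tgfa was -0.11 ± 0.11 (SE, edgeR adjusted p = 0.876).

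Averaged over both groups, all ligands but Tgfa varied widely. The coefficient of variation of CPM, averaged over both groups, was 4.72% for Egfr, 5.5% for Erbb2, 6.87% for Erbb3, 8.58% for Errfi1 and 10.4% for Tgfa. It was 32.7% for Epgn, 34.3% for Ereg, 34.9% for Hbegf, 35.9% for Areg and 57.1% for Btc. These averages can hide unlike groups. Hbegf had 17.8% in Bmal1WT and 52% in Bmal1cKO, and Btc 93.8% and 20.4%. Tgfa had 17.1% in Bmal1WT, close to Hbegf there, and 3.64% in Bmal1cKO. Counting error is larger at low counts, so each was set beside the tested genes whose mean CPM lay within a factor of 2 of its own. Of those genes, 26.1% varied less than Egfr, 37.3% less than Erbb2, 54.9% less than Erbb3, 73.2% less than Errfi1 and 66.1% less than Tgfa. For the other ligands the share was higher, with 98.5% of such genes less variable than Hbegf, 98.1% less than Epgn, 99.2% less than Btc, 93.6% less than Ereg and 92.9% less than Areg. Bmal1WT replicate 3 was the highest library for 5 of the members, Areg, Ereg, Tgfa, Btc and Errfi1, and Bmal1cKO replicate 1 the highest for Egfr and Erbb2.

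Levels of different genes were compared per length, as CPM per kilobase of exon (RPKM), with all annotated exons of a gene merged. In Bmal1WT, Erbb3 was at 44.9 ± 3.13 and Erbb2 at 40.7 ± 1.22 RPKM, with overlapping ranges. Errfi1 at 16.9 ± 1.52 and Egfr at 16.4 ± 0.764 RPKM overlapped each other and lay below both. All ligands were lower, with Epgn at 7.62 ± 3.36, Areg at 5.01 ± 1.48, Hbegf at 3.56 ± 0.635, Btc at 2.99 ± 2.8, Tgfa at 2.23 ± 0.382 and Ereg at 2.00 ± 0.792 RPKM. Each neighbouring pair in this order of ligands overlapped in range. Without Bmal1WT replicate 3 the mean of Btc was 1.62 RPKM, below the 2.05 RPKM of Tgfa and level with the 1.62 RPKM of Ereg. In Bmal1cKO, Epgn was at 13.2 ± 2.82 RPKM and its lowest library, at 10.0, lay above the highest library of every other ligand, the 7.16 RPKM of Hbegf. The order of the other ligands there was Hbegf at 4.51 ± 2.35, Areg at 4.07 ± 1.72, Tgfa at 2.07 ± 0.0752, Btc at 1.71 ± 0.349 and Ereg at 1.39 ± 0.403 RPKM. An exon union can be longer than the transcript in use, which lowers a gene's RPKM.

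Within the ligand transcripts, the make-up was described by each gene's share of the summed RPKM of the 6 ligands. Epgn made up 29.5, 33.7, 34.8 and 30.1% in Bmal1WT and 51.2, 56.1, 47.4 and 42.8% in Bmal1cKO. The groups did not overlap in this share, although they did in the CPM of Epgn, and no background from other sets of genes is given here. Bmal1WT replicate 3, the library that overlapped in CPM, was close to its own group in the share. Its ligand transcripts summed to 36.1 RPKM, against 16.9, 19.5 and 21.1 RPKM in Bmal1WT replicates 1, 2 and 4, and Btc made up 19.7% of them. The mean share of Areg was 21.9 ± 4.45% in Bmal1WT and 14.6 ± 3.06% in Bmal1cKO, that of Ereg 8.56 ± 1.32 and 5.37 ± 2.1%, and that of Hbegf 16.0 ± 3.59 and 15.9 ± 6.11%. The summed ligand RPKM was 23.4 ± 8.64 in Bmal1WT and 26.9 ± 6.19 in Bmal1cKO, with ranges that overlapped, against 102 ± 2.21 and 103 ± 5.75 for the 3 receptors. These shares were looked at after the values of single genes, they add up to a fixed total so that one rises as others fall, and no test was made of them.

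**Figure D3:**
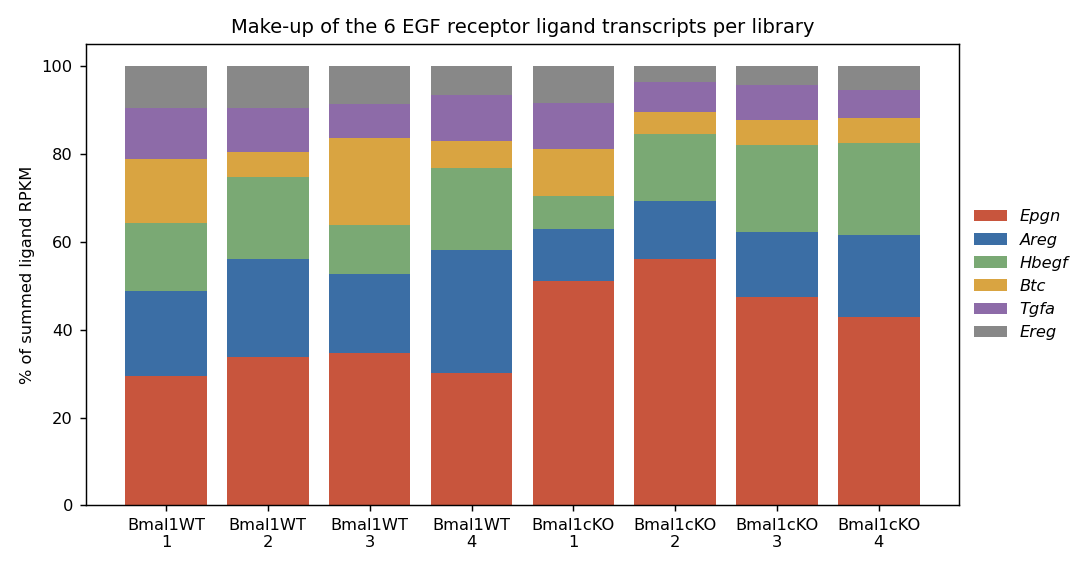
Share of each of the 6 ligand genes in their summed RPKM, as stacked bars that reach 100% in each of the 8 libraries. The Epgn segment covers 29.5 to 34.8% in Bmal1WT and 42.8 to 56.1% in Bmal1cKO, and Btc is widest in Bmal1WT replicate 3 at 19.7%.

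Of the members, Hbegf and Areg had the highest r with the immediate-early and stress genes, though neither relation passed the adjustment. The 12 immediate-early and dissociation stress genes, among them Fos, Jun, Atf3 and heat shock genes, summed to 7700, 9210, 11500 and 12200 CPM in Bmal1WT and to 7280, 12600, 12600 and 16400 CPM in Bmal1cKO. The lowest and the highest of the 8 libraries, Bmal1cKO replicates 1 and 4, were also the lowest and the highest for Hbegf. After the genotype means were taken off, the mean log2 CPM of the list and that of Hbegf had r = 0.96 (Spearman's rho 0.88) over the 8 libraries, with an exact permutation p = 0.0017 within genotypes, the smallest possible. Adjusted over the 30 relations computed, of 10 members with 3 lists, this p was 0.052 (0.1 for rho), and r was 0.81 without the 2 libraries farthest from the list's median. For Areg, r was 0.95 and rho 0.98 (exact permutation p = 0.0069 and 0.014, adjusted 0.1 and 0.21), and 0.93 without the 2 farthest libraries. For Errfi1, r was 0.86 and rho 0.74 (exact permutation p = 0.024 and 0.066, adjusted 0.24 and 0.56), and 0.71 without the 2. None of the 30 passed the adjustment. The permutations treat the libraries of a genotype as exchangeable, but same-numbered libraries deviated together and share a sex, and replicate 1 had the lowest and replicate 4 the highest sum in both groups, so these p-values may be too small. Each sex has 4 libraries, too few for a value within a sex, and the list was chosen with results of these data known.

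For the other ligands r was lower. Tgfa had r = 0.47 and rho = 0.71 (exact permutation p = 0.078 and 0.076, adjusted 0.47 and 0.56), and 0.66 without the 2 farthest libraries. Epgn had r = 0.66 and rho = 0.64 (exact permutation p = 0.036 and 0.12, adjusted 0.27 and 0.61), and 0.38 without the 2 farthest libraries. Btc had r = 0.09 and rho = 0.12 (exact permutation p = 0.81 for each, adjusted 0.89 and 0.94), and Ereg r = 0.12 and rho = 0.19 (p = 0.76 and 0.68, adjusted 0.89 and 0.94). With the basal and the differentiated keratinocyte lists the adjusted p of r was 0.73 or more for every member. How far the handling of the tissue sets these levels was not tested.

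**Figure D4:**
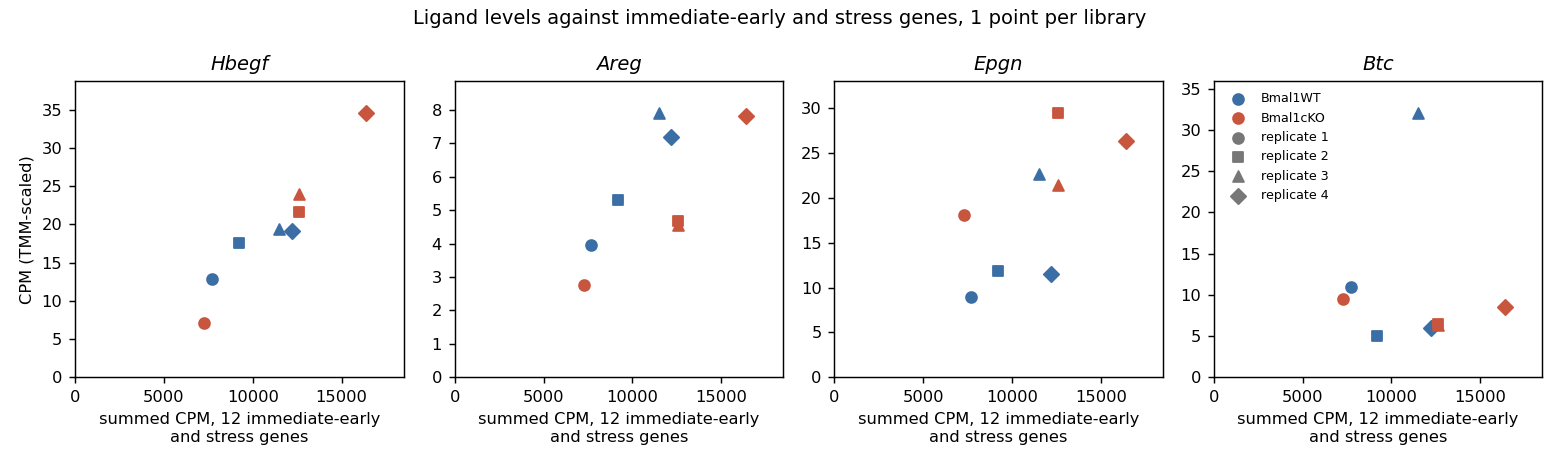
CPM of Hbegf, Areg, Epgn and Btc on the vertical axes against the summed CPM of 12 immediate-early and stress genes, 1 point per library with the colour for genotype and the symbol for replicate. Hbegf rises from 7.08 CPM at the lowest to 34.6 CPM at the highest sum, and Btc is apart from the rest in Bmal1WT replicate 3 alone, at 32.1 CPM.

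The genes most like each member were sought among 10820 genes with a mean of at least 10 CPM, by Pearson's r of log2 CPM over the 8 libraries with the genotype means taken off. With so many genes and 8 libraries high values arise easily, so they are given as a description with no p. For Areg the nearest were Ier5 (r = 0.99, rho 1.0) and Junb (0.98, rho 1.0), both immediate-early genes. Junb was at 614, 739, 994 and 931 CPM in Bmal1WT and at 558, 927, 920 and 1180 CPM in Bmal1cKO. For Hbegf they were Fosb, an AP-1 subunit gene (0.98), and Zzz3 (0.98). For Btc they were Lce1m (0.99), a gene of the late cornified envelope, and Lipo3 (0.99). Lce1m was at 198 CPM in Bmal1WT replicate 3 and at 16.5 to 50.7 CPM elsewhere. Epgn was nearest to Lin54 (0.98) and Wasl (0.96), Ereg to Selenos (0.95) and Brk1 (0.94), and Tgfa to Pank3 (0.98) and the small heat shock gene Hspb1 (0.98). Errfi1 was nearest to Chka (0.99) and Rngtt (0.98), Egfr to Spr (0.98) and Dgkd (0.97), Erbb2 to Uchl5 (0.98) and Gpr108 (0.97), and Erbb3 to Commd10 (0.98) and the processed pseudogene Gm38317 (0.97).

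Among the members, the same measure was highest between Areg and Hbegf (r = 0.87, rho 0.83), Tgfa and Btc (0.84, rho 0.62), and Areg and Errfi1 (0.80, rho 0.81), with Tgfa and Epgn also at 0.80 (rho 0.38). Epgn and Errfi1 were next, at 0.79 (rho 0.71). Among the 7 members with promoter windows, Areg and Errfi1 are those with a CRE, and Hbegf had no window to search. The windows of Epgn and Tgfa, which are in pairs with values as high or nearly so, hold no CRE. Whether the CRE bears on the correlation of Areg and Errfi1 was not tested. Of the chromosome 5 cluster, Ereg and Btc had 0.77, Areg and Epgn 0.69, Btc and Epgn 0.59, Ereg and Epgn 0.55, Areg and Ereg 0.34, and Areg and Btc 0.18. The values with Btc, Ereg and Tgfa share the high library Bmal1WT replicate 3.

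The rest of the pathway, and 12 immediate-early and stress genes, were read from 7 lists of 83 genes, of which 79 were tested. None was called by edgeR (0 of 79), while 8 reached an unadjusted p under 0.05 (10.1%, against 8.3% of all genes). The replicate block and limma voom also called 0 (0.774% and 0.148% of all genes), and DESeq2 called 1, Spry1 (1.18% of all genes). Their median log2 fold change was 0.00, against -0.01 over all genes, with 39 positive and 40 negative. In 5 of the 79 (6.33%) the groups did not overlap, against 5.15% of all tested genes.

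The other receptors and ligands of the family were low. For each pathway gene the Bmal1WT mean is given before that of Bmal1cKO, with the log2 fold change ± SE and the edgeR adjusted p in brackets. Erbb4 had 13 counts over all libraries and was not tested, Nrg3 was not analysed here, and the 5 genes of this list that are in the table, with Egf, Nrg1, Nrg2 and Nrg4, summed to 9.48 to 13.2 CPM. Nrg2, a neuregulin gene, was at 3.73 ± 0.562 and 2.94 ± 0.6 CPM (log2 fold change -0.34 ± 0.18, edgeR adjusted p = 0.661), and Nrg1 at 1.41 ± 0.271 and 1.65 ± 0.251 CPM (0.23 ± 0.19, 0.844). Of the 7 tested sheddases and iRhoms, 0 were called and 0 had an unadjusted p under 0.05. Adam17, the main protease that releases Areg, Hbegf, Tgfa, Ereg and Epgn, was at 127 ± 8.65 and 135 ± 6.49 CPM (0.09 ± 0.06, edgeR adjusted p = 0.763). Adam10, which releases betacellulin, was at 94.3 ± 5.32 and 89.3 ± 6.6 CPM (-0.08 ± 0.06, 0.83).

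The 17 genes of adaptors and the RAS-ERK cascade had fold changes between -0.11 and 0.26 on the log2 scale. The kinase gene Mapk3, which encodes ERK1, had means of 101 ± 4.16 and 93.9 ± 4.62 CPM (-0.11 ± 0.05, edgeR adjusted p = 0.62). Of the 9 genes listed for PI3K and AKT, 2 had an unadjusted p under 0.05 (8.3% of all tested genes) and 3 did not overlap between the groups (5.15%). Pdk1 is 1 of the 2 and 1 of the 3, and here is the symbol of pyruvate dehydrogenase kinase 1 and not of the kinase Pdpk1 that acts on AKT. It had 83.7 ± 7.96 and 101 ± 4.73 CPM (0.27 ± 0.07, edgeR adjusted p = 0.283). Pik3cb, a catalytic PI3K subunit gene, was at 88.4 ± 3.45 and 81.8 ± 1.92 CPM (-0.11 ± 0.05, 0.56).

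Of the 19 feedback inhibitors and genes of receptor degradation, 5 had an unadjusted p under 0.05, against 8.3% of all tested genes, and 0 were called. They went both ways, with Spry1 and Lrig2 (log2 -0.16) below 0 and Spred2, Cblb (0.22) and Nf1 (0.24) above. Spry1, which encodes an inhibitor of receptor tyrosine kinase signalling, was at 49.4, 43.1, 51.4 and 33.3 CPM in Bmal1WT and at 35.1, 32.5, 30.6 and 29.8 CPM in Bmal1cKO. Bmal1WT replicate 4 was the 1 library within the Bmal1cKO range. The log2 fold change was -0.47 ± 0.13 (SE, edgeR adjusted p = 0.295). Spry1 passed with DESeq2 (adjusted p = 0.0459) and without Bmal1WT replicate 4 (0.0488), and over the alternatives its adjusted p ran to 0.589. Spred2, an inhibitor of RAS-ERK signalling, was at 48.6 ± 2.99 and 56.8 ± 3.42 CPM without overlap (0.22 ± 0.06, edgeR adjusted p = 0.34).

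Genes known to be induced by ERK gave 0 with an unadjusted p under 0.05 among 11 tested. The ETS factor gene Etv4 was at 8.64 ± 1.16 and 11.9 ± 3.87 CPM (0.46 ± 0.21, edgeR adjusted p = 0.602). Etv5 had 14.9 ± 1.1 and 16.7 ± 1.47 CPM (0.16 ± 0.08, 0.666). Of the 12 immediate-early and stress genes, 11 lay above 0 on the log2 scale (median over the 12 0.14), and 0 had an unadjusted p under 0.05. For Fosb the means were 1430 ± 216 and 2020 ± 793 CPM (0.50 ± 0.27, edgeR adjusted p = 0.689). The chaperone gene Dnajb1 ranged from 152 to 350 CPM (0.36 ± 0.22, edgeR adjusted p = 0.74). As for Hbegf, the lowest and the highest library for Fosb were Bmal1cKO replicates 1 and 4.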

How the data were processed

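PolyA RNA was made into stranded TruSeq libraries and sequenced as single reads, per the labels' protocols. The authors deposited raw counts per Ensembl gene. The tools named in the submitters' processing notes are STAR 2.7.10a, featureCounts and Trim Galore, with build GRCm38. Not given in the sources used here were the annotation release and the strand and multimapping settings. GENCODE M21 named 33974 of the 34070 identifiers and gave coordinates and exon lengths.

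The test was edgeR 4.0.16 (R 4.3.3) after filterByExpr (minimum count 10, minimum total count 15) and TMM scaling, with genotype as the only term. A standard error is the absolute log2 fold change over the square root of F, and intervals are at 95%. Alternatives were DESeq2 1.42.0, limma 3.58.1 (voom), DESeq2 size factors in edgeR, no filter, the replicate block, sex as a covariate, each sex alone (sex read from Xist over 100 CPM), and leaving out each of the 8 libraries. The edgeR, voom and DESeq2 fits were also run on simulated data, but no outcome is given here and no result rests on that run. Log2 CPM for correlations had 0.5 CPM added.

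Replicate numbers come from the titles, which the groups share. Same-numbered libraries deviated together from their group means (r = 0.35, 0.51, 0.41 and 0.38 over genes, all above 0.1), and they also share a sex. Differently numbered libraries of the same sex had r = 0.12, 0.19, 0.36 and 0.17, also above 0.1. This measure does not separate the number from sex, so the number counts as a pairing by that measure only. Each group holds libraries of both sexes and so of at least 2 animals. The labels do not say that every library comes from its own animal, and p-values cover the variation among these libraries, part of which may be technical. No pair of libraries within a group agreed within sampling noise (chi-square per degree of freedom 13.2 to 49.3). Named genes are all members, Arntl, the called genes or otherwise the 2 of smallest p of each list, and the 2 genes most like each member. Most cell type lists are given as sums only. For 1 pathway list, 1 gene under this rule is not reported here. Lor, Krt1, Krt10, Trdc, Lrig2, Cblb, Nf1 and the library values of Junb were added after their values were seen. Members and lists were chosen with earlier results of these data known.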

Additional observations from a re-analysis of the deposited data

Results flagged for a closer look

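Erbb3 in Bmal1cKO replicate 3, at 245 CPM, lay apart from the other 3 Bmal1cKO libraries, which were between 278 and 284 CPM, with a gap of 0.845 of the group's range, past Dixon's 95% critical value. It was the only library found apart in this way among the 20 groups of 4 examined, of which chance gives about 1 in 20. Without it the log2 fold change of Erbb3 was 0.06 (edgeR adjusted p = 0.847).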

How the results depend on the processing

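The count of genes called over all genes, 34, became 246 with DESeq2, 71 without the filter, 152 with the replicate block, 119 with sex as a covariate, 13 in the female and 101 in the male libraries alone, and 23 to 32 without single libraries. Members called stayed at 0 in 15 of the 16 alternatives, the replicate block included, and was 1 in the male libraries alone, where the log2 fold change of Epgn was 1.26. Of the pathway genes, 1 was called with DESeq2, and 0 to 1 without single libraries. Of 160 member fold changes under alternatives, 145 kept their direction and missed the threshold, 1 passed it and 14 changed sign without passing. In the female libraries alone the sign changed for Erbb2 (0.02), Erbb3 (-0.01), Hbegf (-0.06) and Errfi1 (-0.07), and in the male ones for Tgfa (0.02) and Btc (0.46). Without single libraries the ranges that crossed 0 were -0.06 to 0.03 for Erbb2, -0.03 to 0.06 for Erbb3, -0.16 to 0.01 for Tgfa and -1.08 to 0.08 for Btc, the last positive only without Bmal1WT replicate 3. With the replicate block the log2 fold changes were 0.85 for Epgn, 0.11 for Egfr and -0.42 for Btc, and it changed no member's call. All 100 mean levels moved by less than 1 SD, although that of Btc in Bmal1WT went from 13.5 to 7.31 CPM without replicate 3. The causes of these changes were not tested, and the left-out and single-sex fits also hold fewer libraries. Intervals for the ligands other than Tgfa span more than 2-fold from end to end. In fold they run from 0.25 to 1.29 for Btc, 0.448 to 1.07 for Ereg and 0.501 to 1.31 for Areg. For Hbegf the interval runs from 0.71 to 2.26 and for Epgn from 1.13 to 2.63. Differences as large as these ends are not excluded.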
